A study of Mus musculus with 12 samples.

Results

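The 7 genes described here, Gdf10, A2m, Timp4, Itih3, Hopx, Fabp7 and Mybpc1, are markers of Bergmann glia, and they were taken by gene symbol from a table of 24421 genes. Each symbol was found in the table, and all 7 genes passed the filter on low values that left 15464 genes for testing. RNA was sequenced from GFP-positive cells sorted from the cerebellum of Aldh1l1-GFP mice on the C57/BL6J background, with 3 libraries at each of postnatal days P1, P7, P14 and P28, or 12 libraries in all. No group was treated, every library came from reporter animals, and the groups differed by age. The Aldh1l1 promoter drives GFP in astrocytes as a class, so the sort took astrocytes of the granular layer and white matter together with Bergmann glia. In sorted bulk material of this kind, fewer cells of a type and less RNA per cell cannot be told apart. The labels do not say whether the 3 libraries of an age came from separate animals, and the p-values then measure only the spread between these libraries.

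Bergmann glia are the unipolar astrocytes of the cerebellar cortex. Their somata lie around the Purkinje cells and their radial fibres cross the molecular layer to the pial surface, where they guide granule neurons inward after birth and later ensheath Purkinje cell synapses and take up glutamate. The 7 markers do different things. Gdf10 is a secreted ligand of the TGF-beta superfamily, A2m, Timp4 and Itih3 are secreted proteins of protease inhibition and the extracellular matrix, Hopx is a nuclear cofactor, Fabp7 carries fatty acids in the cytoplasm of radial glia and their descendants, and Mybpc1 encodes a myosin-binding protein best known from slow skeletal muscle.

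Between P1 and P28, 6 of the 7 markers rose and Fabp7 fell, in a comparison where 34.6% of all tested genes were called. The main step was from P7 to P14, when Gdf10, A2m, Timp4, Itih3, Hopx and Mybpc1 each rose between 4.05-fold and 13.2-fold by the ratio of their means and 20.9% of all genes were called. At that step 15 of 17 genes of astrocytes in general rose too, with a median log2 change of 2.16, against 2.84 for the markers. Hopx rose nearly as much from P14 to P28, by 3.94-fold. From P1 to P7 the set was split, with Mybpc1 higher at P7 and A2m, Fabp7 and Timp4 lower (7.70% of all genes called). From P14 to P28, A2m, Hopx, Timp4 and Fabp7 rose (14.4% of all genes called), while the changes of Gdf10, Itih3 and Mybpc1 did not pass the test.

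**Figure D1:**
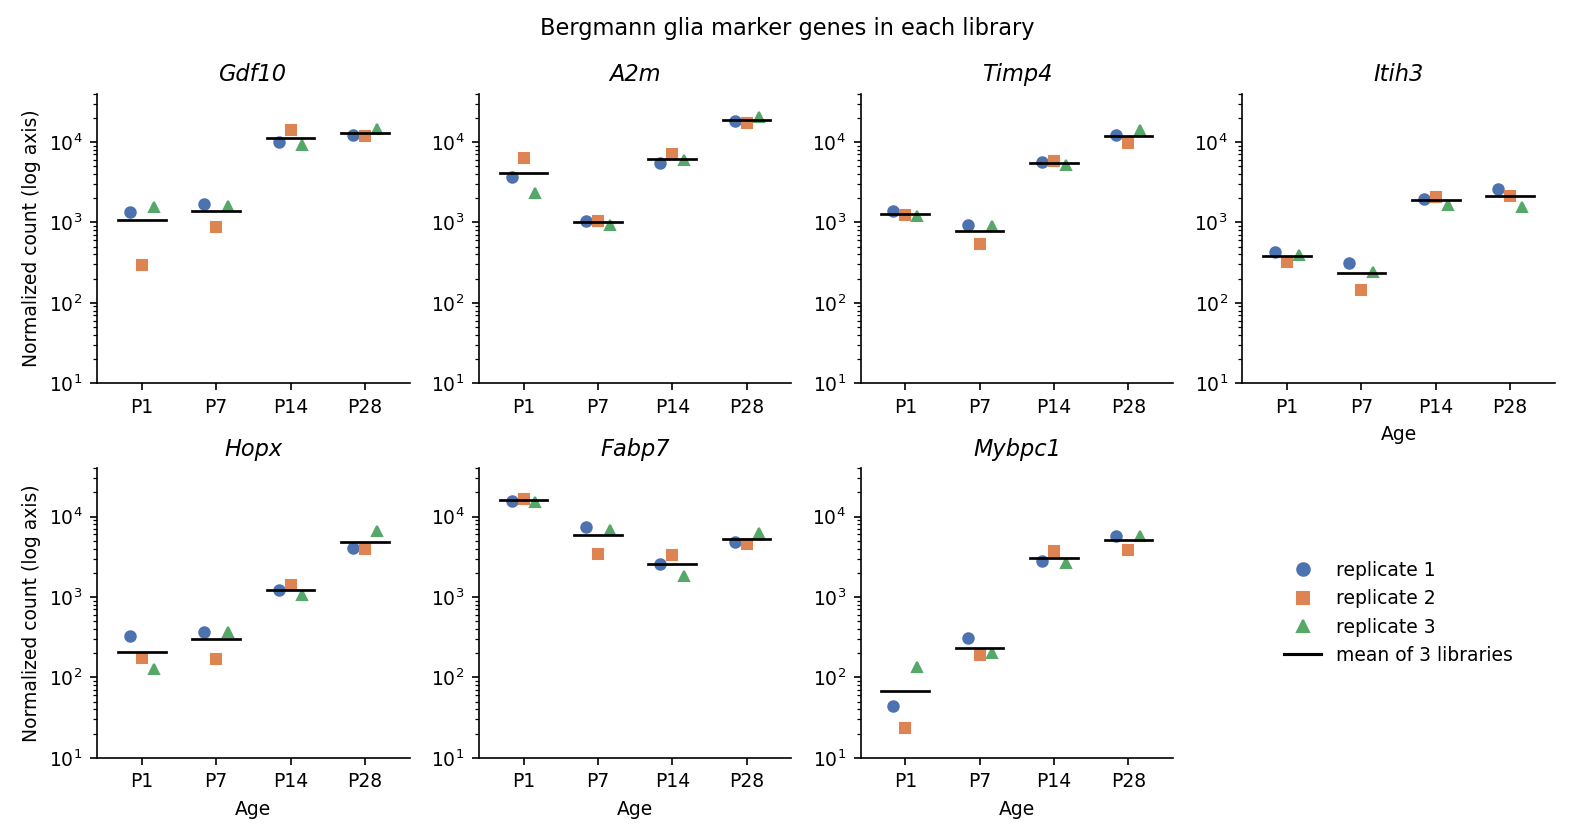
Normalized count of each Bergmann glia marker (log axis) at P1, P7, P14 and P28, with 1 point for each of 3 libraries and a line at their mean. Gdf10, A2m, Timp4, Itih3, Hopx and Mybpc1 lie higher at P14 and P28 than at P7 in every library, and Fabp7 is highest at P1.

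The 4 windows of promoter sequence printed here are shown because their genes had different time courses: Gdf10 and Mybpc1 with a step at P14, Timp4 with a dip at P7 before its rise, and Fabp7, the member that fell. RefSeq held promoters on GRCm38.p6 for 6 of the 7 members, 2 of them for Hopx, and A2m was not matched. Each window runs 5′ to 3′ on the gene's strand from base -250 to base -51 before the RefSeq start. Capitals mark the nuclear factor I (NFI) half-site TTGGC or its reverse complement GCCAA, and the core TGGGAA of the Notch effector RBPJ or its reverse complement TTCCCA.
Gdf10, chr14:33923337-33923536, plus strand: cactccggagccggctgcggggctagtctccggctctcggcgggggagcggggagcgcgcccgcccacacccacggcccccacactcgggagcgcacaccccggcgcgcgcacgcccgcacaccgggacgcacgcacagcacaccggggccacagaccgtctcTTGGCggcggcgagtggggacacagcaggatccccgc
Timp4, chr6:115252256-115252455, minus strand: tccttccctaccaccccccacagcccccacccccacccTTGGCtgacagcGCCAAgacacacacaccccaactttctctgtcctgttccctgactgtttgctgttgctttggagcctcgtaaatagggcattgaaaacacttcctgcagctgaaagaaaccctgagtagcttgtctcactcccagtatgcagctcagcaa
Mybpc1, chr10:88605203-88605402, minus strand: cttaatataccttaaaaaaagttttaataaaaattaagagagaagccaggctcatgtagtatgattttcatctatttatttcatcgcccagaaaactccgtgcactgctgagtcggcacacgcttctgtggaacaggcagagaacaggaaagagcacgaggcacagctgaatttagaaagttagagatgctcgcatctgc
Fabp7, chr10:57784673-57784872, plus strand: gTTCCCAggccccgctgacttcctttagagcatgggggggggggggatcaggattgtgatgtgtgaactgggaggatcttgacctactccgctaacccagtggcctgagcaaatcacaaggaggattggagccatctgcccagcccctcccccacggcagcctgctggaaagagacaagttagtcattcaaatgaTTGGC

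The promoters of the members were unlike each other in base composition. Over 250 bases before the start, Gdf10 held 35 CpG dinucleotides at 78.8% G and C, more CpG than 97.0% of the 32851 promoters in the table, whose median was 6. Timp4 held 2 CpG, Itih3 3, Fabp7 4, Mybpc1 11, and the 2 starts of Hopx 8 and 18. With both strands searched, TTGGC was found in the promoters of Gdf10, Timp4, Fabp7 and 1 start of Hopx, and in 41.5% of all promoters. Fabp7 alone among the 6 matched members held TGGGAA, which 21.6% of all promoters held. The GC box GGGCGG, present in 32.7% of all promoters, occurred 4 times before Gdf10 and 1 time before Itih3. The TATA box TATAAA, present in 12.4% of all promoters, was found in none of the 6 matched members. The letters of TTGGC can overlap those of a CCAAT box on the other strand, and a match describes these letters only.

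Read counts recovered from the table ranged from 6399499 to 14733985 per library. Libraries of the same age differed from each other by more than sampling noise, with chi-square values per degree of freedom from 9.57 to 72.9. Aldh1l1, whose promoter drives the reporter, was present at every age at means of 5008, 1470, 1879 and 2921 normalized counts and fell by 1.80 on the log2 scale from P1 to P7 (adjusted p = 4.66e-04). The second library at P7 had the lowest depth and the lowest value of 6 of the 7 markers among the P7 libraries. Its summed level of 17 genes of astrocytes in general was 40862, against 68745 and 74045 in the other P7 libraries. It had the highest P7 sums of choroid plexus and ependyma (127187), meningeal (17420), endothelial and pericyte (7681) and granule neuron genes (9033). Its interneuron sum was the lowest (2451), and its oligodendrocyte and microglia sums lay between the others. The part of cell make-up in its low marker values was not tested.

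Differences were tested with limma on log2(normalized count + 1), in 1 fit over the 12 libraries, and a change was called at an adjusted p below 0.05 over all 15464 genes. Every fold change on the log2 scale below is on this scale, which understates changes of low genes. From P1 to P7, 1 marker was higher and 3 were lower, where 7.70% of all tested genes were called, 3.47% higher and 4.24% lower. The median change of the markers was -0.73, and that of all genes was 0.04. The count fell to 2 when the second libraries of P1 and P7 were both left out, with Timp4 (adjusted p = 0.237) and Mybpc1 (adjusted p = 0.0677) no longer called.

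All 7 markers were called between P7 and P14, 6 higher and 1 lower, where 20.9% of all genes were called, 10.8% higher and 10.0% lower. The markers' median was 2.84 and that of all genes was -0.09. From P14 to P28, 4 markers were higher and none lower, where 14.4% of all genes were called, 5.68% higher and 8.76% lower. Here the median of the markers was 1.05, against -0.12 over all genes. Across the whole interval, P28 against P1, 6 markers were higher and 1 was lower, and 34.6% of all genes were called, 14.6% higher and 20.0% lower. Over the 4 ages together all 7 markers passed, as did 43.8% of all genes. The libraries of the ages compared did not overlap for 5 markers between P1 and P7 (38.3% of all genes), 7 between P7 and P14 (46.1%), 5 between P14 and P28 (26.1%) and 7 between P1 and P28 (41.9%). Each step shares its libraries with the next, so the steps are not independent of each other. When libraries were scaled by their totals alone, the median of all genes moved to -0.34 from P7 to P14 and to -0.66 from P1 to P28. The share of called genes that were higher then changed from 51.9% to 32.9% between P7 and P14 and from 42.3% to 21.1% between P1 and P28.

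**Figure D2:**
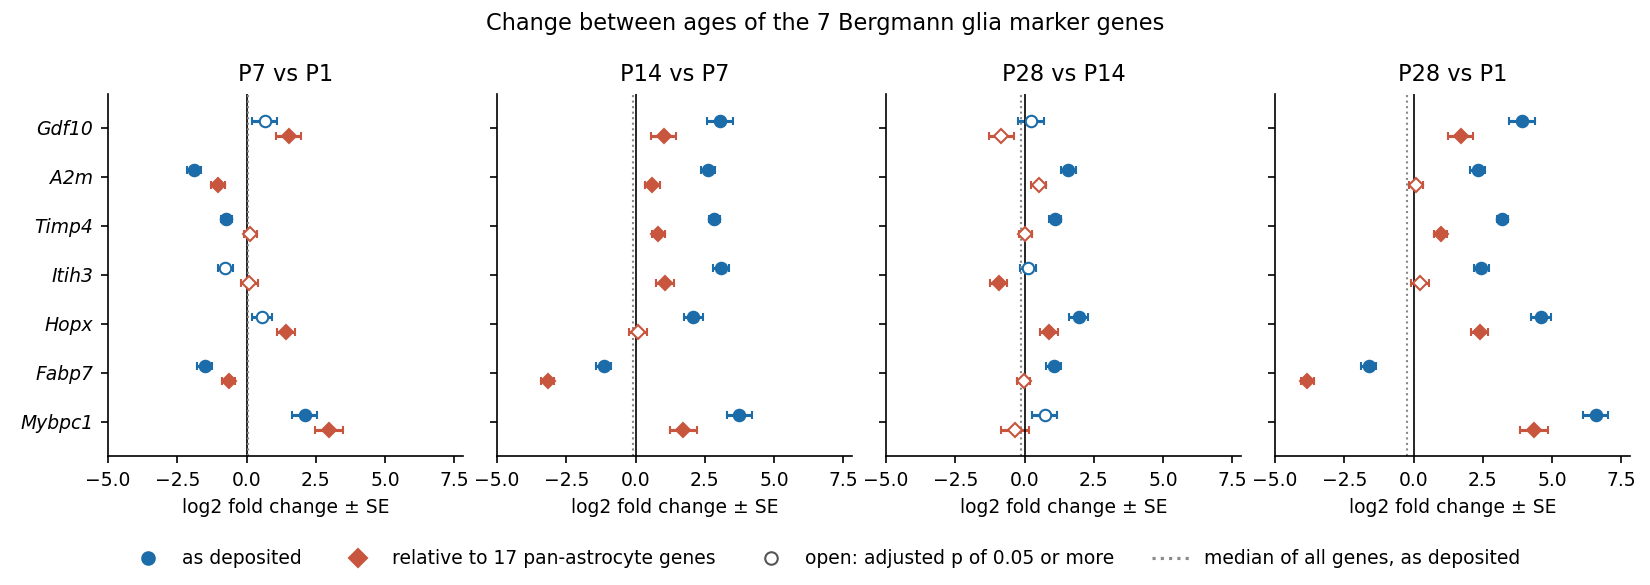
Change on the log2 scale, with its standard error, of each marker between ages, as deposited (circles) and relative to 17 pan-astrocyte genes (diamonds); filled symbols have an adjusted p below 0.05 and the dotted line is the median of all genes. As deposited, 6 markers lie to the right of 0 from P7 to P14 and from P1 to P28, and Fabp7 lies to the left.

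Gdf10 (chr14:33923587-33937983, plus strand, GRCm38), also known as bone morphogenetic protein 3B, is the secreted ligand of the set. Its normalized counts were 1341, 297 and 1536 in the P1 libraries and 1687, 869 and 1605 in those of P7. They were 10078, 14130 and 9217 in the P14 libraries and 12229, 12007 and 14328 in those of P28. The libraries at P1 and P7 overlapped, those at P14 and P28 overlapped, and nothing lay between the early and the late levels. From a mean of 1387 ± 450 (SD, n = 3) at P7 it rose to 11142 ± 2624 at P14, a log2 change of 3.04 ± 0.46 (SE, adjusted p = 2.94e-04). The early step, 0.65 ± 0.46 (adjusted p = 0.534), did not pass, and it became -0.11 without the low second library of P1. The late step was 0.23 ± 0.46 (adjusted p = 0.783) and also did not pass. Over the whole interval Gdf10 was higher at P28 than at P1 by 3.91 ± 0.46 (adjusted p = 1.92e-05), or by 3.16 without that second library of P1.

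Receptors and Smads of the TGF-beta and BMP families were present at every age. Of 11 such genes, 2 fell from P1 to P7, 2 rose and 4 fell from P7 to P14, and 2 rose and 1 fell from P14 to P28. The type 2 receptor Bmpr2 had means between 4179 and 4986 and passed no step. The type 1 receptor Bmpr1a fell by 0.68 in the first week (adjusted p = 0.0287) and rose by 0.71 from P14 to P28 (adjusted p = 0.0173). Both calls were lost when single libraries were left out, with an adjusted p up to 0.143 without the second library of P7 and up to 0.0649 without the third library of P14. Bmpr1b and Smad3 are named after their values were seen, since they rose at P14 as Gdf10 did: Bmpr1b by 1.22 (adjusted p = 0.00513) and Smad3, an intracellular transducer, by 1.42 (adjusted p = 0.00495). The bone morphogenetic protein gene closest to Gdf10 in sequence family, Bmp3, had a mean of 100.04 at P1 and was at 0 in every library at P28.

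A2m (chr6:121635376-121679227, plus strand) encodes alpha-2-macroglobulin, a secreted inhibitor that traps proteases of many classes. It measured 3621, 6223 and 2309 at P1, then only 1036, 1054 and 925 a week later at P7. By P14 the libraries read 5523, 7130.1 and 5991, and by P28 they read 18356, 17113 and 20251. P7 was the low point, below every other library, and P28 lay above every other library. The P1 and P14 libraries overlapped, through the second library of P1. A2m first fell by 1.89 ± 0.26 (adjusted p = 4.60e-04 for P7 against P1). It then rose by 2.62 ± 0.26 up to P14 (adjusted p = 7.59e-06), with a further rise of 1.58 ± 0.26 at P28 (adjusted p = 0.00179). The difference between P14 and P1 was 0.73 ± 0.26 (adjusted p = 0.0606), and without the second library of P1 it was 1.10 (adjusted p = 0.00150). With the replicate number as a block it passed narrowly. At P1 the 3 libraries had the same order for A2m as for the summed level of 4 meningeal fibroblast genes (13569, 22680 and 5156). Genes of astrocytes in general had that order too (111119, 120373 and 87879), as did the oligodendrocyte, microglia, and choroid plexus and ependyma sums. The endothelial and pericyte sum did not (1502, 4328 and 1524). A shared order of 3 libraries cannot tell these lists apart, and the part of meningeal cells in the A2m value was not tested.

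Lrp1, the receptor that clears protease-bound alpha-2-macroglobulin, fell by 1.12 in the first week (adjusted p = 0.00576) and rose by 1.37 from P7 to P14 (adjusted p = 5.11e-04). Its chaperone Lrpap1 rose by 0.75 from P14 to P28 (adjusted p = 0.0144, but 0.0542 without the third library of P14). Liver cell markers were nearly missing here. The summed level of 6 of them, Alb, Apoa1, Apoa2, Ahsg, Fga and Fgb, was at most 15.0 in any library and 0 in all 3 libraries at P28. The relatives of A2m in the pregnancy zone and murinoglobulin group were low as well, with Mug1 and Mug2 at 0 in all libraries.

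Timp4 (chr6:115241892-115252205, minus strand) encodes a tissue inhibitor of metalloproteinases. It had values of 1403, 1229 and 1207 on P1 and 925, 541 and 905 on P7, then 5550.5, 5815 and 5130.1 on P14 and 12092, 9696 and 13915 on P28. No 2 ages overlapped, and the order was P28, P14, P1 and P7. Its increase of 2.84 ± 0.20 from P7 to P14 (adjusted p = 5.69e-07) was followed by 1.10 ± 0.20 to P28 (adjusted p = 0.00359). The fall of 0.73 ± 0.20 from P1 to P7 was called at an adjusted p of 0.0396, and it was not called by edgeR (adjusted p = 0.0609), with no filter (0.0519), without the second P7 library (0.166), without any 1 of the P1 libraries (0.0686 to 0.151) or without any 1 of the P14 libraries (0.0531 to 0.0581). The gene lies inside the span of Syn2 on the opposite strand, and whether the counting used strand is not given in the sources used here. As reads on the gene rather than per length, Syn2 had a mean normalized count of 617 over the 12 libraries and Timp4 4867, and Syn2 changed by 1.74 from P1 to P28 (adjusted p = 4.20e-04).

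From P7 to P14, when Timp4 rose, the other Timp genes tested at means of at least 100 did not pass. Timp3, which binds to the matrix, had a mean of 6561 at P1, fell by 1.64 in the first week (adjusted p = 1.47e-04), did not pass from P7 to P14 (0.36, adjusted p = 0.212) and rose by 0.67 from P14 to P28 (adjusted p = 0.0317, but 0.119 without the third library of P14). Timp2 fell by 1.03 from P1 to P7 (adjusted p = 0.0291), a call lost on leaving out any 1 of 5 of the 6 libraries compared, at adjusted p up to 0.143 without the second library of P1. Among 7 metalloproteinases that Timps can inhibit, none rose and 2 fell at each of the steps from P1 to P7 and from P7 to P14. The membrane-bound protease Mmp14 fell by 1.05 (adjusted p = 0.00243) and by 0.75 (adjusted p = 0.00808) at those steps, and rose by 1.49 from P14 to P28 (adjusted p = 3.11e-04). Mmp16 fell by 1.65 from P14 to P28 (adjusted p = 0.0186), with -1.05 and -2.24 without the first and the third library of P28 and an adjusted p of 0.0547 and 0.0685 without the first and the third library of P14.

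Itih3 (chr14:30908572-30923760, minus strand) encodes a heavy chain of the inter-alpha-inhibitor family, which becomes joined to hyaluronan in the extracellular matrix. The early libraries read 431, 318 and 389 (P1) and 314.5, 143 and 243 (P7), and the later ones read 1949.7, 2077 and 1630 (P14) and 2625, 2134 and 1551 (P28). The values formed a low pair of ages and a high pair, with P14 and P28 overlapping and P1 just above P7. It rose by 3.08 ± 0.28 from P7 to P14 (adjusted p = 3.92e-06). The changes of -0.76 ± 0.28 from P1 to P7 (adjusted p = 0.128) and 0.13 ± 0.28 from P14 to P28 (adjusted p = 0.791) did not pass. At P28 the third library was lowest for Itih3 but highest for each of the other 6 markers.

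The genes around Itih3 on chromosome 14 were hardly detected. Itih4, 6219 bases away, had a mean of 1.34 and Itih1, 5420 bases away, a mean of 0.10. Itih5 had a mean of 3841 at P1 and passed no step. Ambp, which encodes the light chain that joins the heavy chains in liver, had a mean below 10 at every age and was at 0 in all libraries at P14 and P28. Of 6 tested genes for hyaluronan synthases, receptors and partners, Cd44, a cell surface receptor of hyaluronan, rose by 1.97 from P14 to P28 (adjusted p = 7.62e-04). Hmmr, a hyaluronan receptor that also acts on the mitotic spindle, fell by 5.30 from P7 to P14 (adjusted p = 2.19e-04) and fell by 3.519 up to P28 (adjusted p = 0.00915).

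Hopx (chr5:77086988-77115121, minus strand) encodes a small homeodomain protein that does not bind DNA and acts through other nuclear factors. The 3 libraries of P1 gave 323, 175 and 129, and those of P7 gave 372, 171 and 367. At P14 they gave 1226, 1413 and 1052, and the P28 libraries gave 4087.5, 3902 and 6569.6. P1 and P7 overlapped, and P14 and P28 each stood clear of the ages before. Hopx rose in 2 steps, by 2.09 ± 0.35 between P7 and P14 (adjusted p = 7.16e-04) and by 1.95 ± 0.35 between P14 and P28 (adjusted p = 0.00338). The early change of 0.56 ± 0.35 did not pass (adjusted p = 0.462). Of its known partners, the deacetylase gene Hdac2 fell by 1.63 from P7 to P14 (adjusted p = 1.23e-04) and did not pass from P14 to P28 (-0.01, adjusted p = 0.985). The transcription factor gene Srf fell by 1.41 from P7 to P14 (adjusted p = 0.0480), a call lost on leaving out any 1 of 8 libraries and reduced to -0.90 without the first library of P14 (adjusted p = 0.207).

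Fabp7 (chr10:57784881-57788450, plus strand) encodes brain lipid-binding protein, a carrier of long-chain fatty acids. Its levels began at 15797, 16664 and 15145 in the P1 libraries and were 7418, 3433 and 6715 by P7. The P14 libraries had 2565, 3305 and 1834, and the P28 libraries had 4859, 4569 and 6215. The P1 libraries were the highest and the P14 libraries the lowest, and P7 and P28 overlapped. Fabp7 fell by 1.51 ± 0.26 in the first week (adjusted p = 0.00262) and by 1.15 ± 0.26 in the second (adjusted p = 0.00591), and its rise of 1.05 ± 0.26 between P14 and P28 was also called (adjusted p = 0.0174). That last rise was not called without the third library of P14 (0.83, adjusted p = 0.0855) or without the third library of P28 (adjusted p = 0.0501). Between P7 and P28 the difference was -0.10 ± 0.26 (adjusted p = 0.781).

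Of 7 factors known to act on Fabp7, 4 rose and 2 fell from P1 to P7, none rose and 4 fell from P7 to P14, and 2 rose from P14 to P28. Up to P14 the NFI genes moved together. Nfib rose by 1.42 (adjusted p = 2.13e-04) and Nfix by 1.14 (adjusted p = 0.00422) from P1 to P7. They fell by 2.29 (adjusted p = 9.16e-07) and by 1.56 (adjusted p = 1.25e-04) from P7 to P14. Nfia, named after its values were seen, changed by 0.61 (adjusted p = 0.0111) and -1.27 (adjusted p = 1.36e-05) at these steps. From P14 to P28 Nfia rose by 0.94 (adjusted p = 7.62e-04), while Nfib (0.10, adjusted p = 0.753) and Nfix (0.63, adjusted p = 0.0633) did not pass. Notch1, named after its values were seen, encodes a receptor upstream of RBPJ and fell by 1.95 from P1 to P7 (adjusted p = 7.44e-05). Another fatty acid carrier, Fabp5, passed no single step but was lower at P28 than at P1 by -1.51 (adjusted p = 1.57e-04), where Fabp7 changed by -1.62 (adjusted p = 3.14e-04). Fabp3 was 2.80 higher at P7 than at P1 (adjusted p = 0.0496), a call lost without any 1 of the 6 libraries compared, at adjusted p up to 0.195 without the first library of P1. The next gene to the right of Fabp7 is Smpdl3a, 5885 bases away, which fell by 0.95 from P1 to P7 (adjusted p = 0.00306) as Fabp7 did, but rose by 1.57 from P7 to P14 (adjusted p = 1.59e-05).

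Mybpc1 (chr10:88518279-88605152, minus strand) had the widest range of the 7 genes. It began at 43.7, 23.6 and 135 in the P1 libraries and was 305, 189.8 and 199 by P7. The P14 libraries had 2791, 3726 and 2667, and the P28 libraries 5660, 3886 and 5788. The values at P1 rest on 33 to 178 reads per library, so counting error is larger there than for the other markers. No 2 ages overlapped and the order followed age. Mybpc1 was 2.10 ± 0.45 higher at P7 than at P1 (adjusted p = 0.00972) and 3.74 ± 0.45 higher at P14 than at P7 (adjusted p = 4.21e-05), while the change of 0.73 ± 0.45 to P28 did not pass (adjusted p = 0.298). From P1 to P28 the ratio of the means was 75.9, and the log2 change was 6.57 ± 0.45 (adjusted p = 1.08e-07). Without the third library of P1, the highest of that age, it was 7.25, and the change at P7 was 2.78 in place of 2.10.

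Other muscle genes did not come with Mybpc1. Of 7 striated muscle genes, Acta1, Ckm, Mylpf, Tnnc2 and Tnnt1 had means below 10 at every age, only Ttn and Myh7 could be tested and neither passed a step, and the summed level of the list stayed between 33.0 and 345 per library. The related gene Mybpc3 rose by 3.03 from P7 to P14 (adjusted p = 0.0351), from a mean of 40.1 to 349, and this call was lost without any 1 of the 6 libraries compared, at adjusted p from 0.0597 without the second to 0.120 without the third library of P14. Chpt1, a gene of choline phospholipid synthesis 14206 bases from Mybpc1 on the same strand, was higher by 2.10 at P14 than at P7 (adjusted p = 7.59e-06), and its rise between P14 and P28 was 1.15 (adjusted p = 0.00314).

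Levels can be compared between genes only per length, and here they are given as FPKM, reads scaled to exon length and library size, with exons from GENCODE M21. On this scale Fabp7 made up 91.0% ± 0.9 (SD, n = 3) of the summed level of the 7 markers at P1 and 84.1% ± 1.8 at P7, but 25.3% ± 3.0 at P14 and 25.7% ± 0.6 at P28. Gdf10 had the largest share at P14, 26.5% ± 1.4, which lies within 1 SD of that of Fabp7. At P28, Hopx (19.5% ± 2.9), A2m (16.4% ± 1.1) and Gdf10 (15.3% ± 1.0) came next after Fabp7. The sum itself was 1556 ± 48 FPKM on P1 and 641 ± 213 on P7, then 779 ± 140 on P14 and 1335 ± 172 on P28. On this scale the P7 and P14 libraries were within each other's spread. Library size here was the total of recovered reads, not the size factors behind the normalized counts. Normalized counts totalled 8.69e+06 to 9.13e+06 per library at P1 and 1.16e+07 to 1.26e+07 at P28. The order of these sums between ages therefore depends on the scaling and is not that of the normalized counts.

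**Figure D3:**
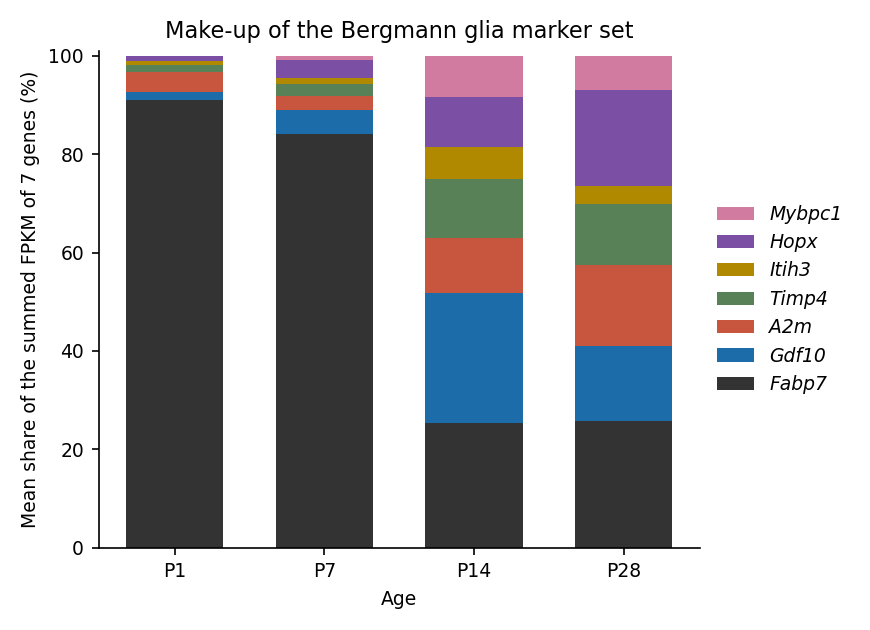
Mean share of each marker in the summed FPKM of the 7 genes (percent, 3 libraries per age, bars from 0). Fabp7 takes 91.0% at P1 and 25.3% at P14, when Gdf10 takes 26.5%.

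Ranked by FPKM among 23350 genes, Fabp7 stood in place 6 on P1, 20 on P7, 99 on P14 and 68 on P28. Mybpc1 moved furthest up, from rank 11437 at P1 to 269 at P28. Hopx went from 2832 to 89, A2m from 390 to 102 by way of 2622 at P7, Gdf10 from 1746 to 110, Timp4 from 1627 to 137 and Itih3 from 3858 to 597.

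Genes of astrocytes in general also rose from P7 to P28, while from P1 to P7 more of them fell. Of 17 pan-astrocyte genes, 2 rose and 12 fell from P1 to P7 (median -1.10), 15 rose and none fell from P7 to P14 (median 2.16), and 13 rose and none fell from P14 to P28 (median 1.03). The glutamate transporter gene Slc1a2, for example, fell by 0.75 in the first week (adjusted p = 0.0422, but 0.0509 to 0.159 on leaving out any 1 of 7 libraries, highest without the second of P1), rose by 2.45 in the second (adjusted p = 2.45e-06) and rose again by 1.12 up to P28 (adjusted p = 0.00386). Of 14 further genes that are high in or needed by Bergmann glia, 2 rose and 8 fell, 9 rose and none fell, and 11 rose and none fell at the 3 steps. Among these, Ptprz1, a receptor phosphatase, fell by 1.77 in the first week (adjusted p = 4.63e-04) and rose by 1.25 from P14 to P28 (adjusted p = 0.00470), with 0.45 between P7 and P14 (adjusted p = 0.229). Ednrb, the endothelin B receptor of glia, fell by 1.01 (adjusted p = 0.0180) and rose by 1.10 (adjusted p = 0.00862) at the first and the last step, and the first of these calls was lost without the first library of P1 (adjusted p = 0.0858).

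To see how each marker moved against astrocyte genes as a class, the values were also set relative to the mean of the 17 pan-astrocyte genes in each library, which shifts the median of all genes to 0.90 from P1 to P7, -2.07 from P7 to P14, -1.12 from P14 to P28 and -2.36 from P1 to P28. Relative to this list, 4 markers were higher and 1 was lower at P28 than at P1, where 1.69% of all genes were called higher and 82.7% lower. The higher ones were Mybpc1 by 4.36 ± 0.50 (adjusted p = 2.29e-07), Hopx by 2.38 ± 0.32 (adjusted p = 1.39e-06), Gdf10 by 1.70 ± 0.45 (adjusted p = 0.00177) and Timp4 by 0.99 ± 0.24 (adjusted p = 7.30e-04). A2m changed by 0.09 ± 0.26 (adjusted p = 0.745) and Itih3 by 0.23 ± 0.32 (adjusted p = 0.501) on this scale. Fabp7 changed by -3.84 ± 0.23 (adjusted p = 8.97e-11). The rises of A2m and Itih3 over the whole interval could thus not be told from the rise of the list itself at this spread. On this scale the changes of Bmpr1b, Smad3, Lrp1 and Smpdl3a from P7 to P14, and those of Bmpr1a, Timp3, Lrpap1 and Smpdl3a from P14 to P28, turned negative.

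The same scale gives the steps against the list. At the step from P1 to P7, where the list itself fell and 25.6% of all genes were called higher and 1.10% lower, Gdf10 (1.51 ± 0.45, adjusted p = 0.0188), Hopx (1.43 ± 0.32, adjusted p = 0.00380) and Mybpc1 (2.97 ± 0.50, adjusted p = 4.59e-04) were higher, beside the all-gene median of 0.90. A2m (-1.03 ± 0.26, adjusted p = 0.00875) and Fabp7 (-0.65 ± 0.23, adjusted p = 0.045) were lower at this step. The Gdf10 change includes the low second library of P1 (297, against 1341 and 1536), without which the change as deposited was -0.11. Leaving out libraries was not tried on the relative scale, so this limit also holds for Gdf10 at P28 against P1. From P7 to P14 Hopx changed by 0.08 ± 0.32 (adjusted p = 0.821), and the other 5 rising markers by 0.61 to 1.73, each called higher, as were 1.08% of all genes, while 77.6% were called lower. Fabp7 fell by 3.17 ± 0.23 against the list at that step (adjusted p = 3.64e-09). From P14 to P28, where 0.239% of all genes were called higher and 45.1% lower, Hopx was higher by 0.88 ± 0.32 (adjusted p = 0.0305) and Itih3 was lower by -0.94 ± 0.32 (adjusted p = 0.0230), while the rise of Fabp7 seen in the deposited values was -0.02 ± 0.23 (adjusted p = 0.949).

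**Figure D4:**
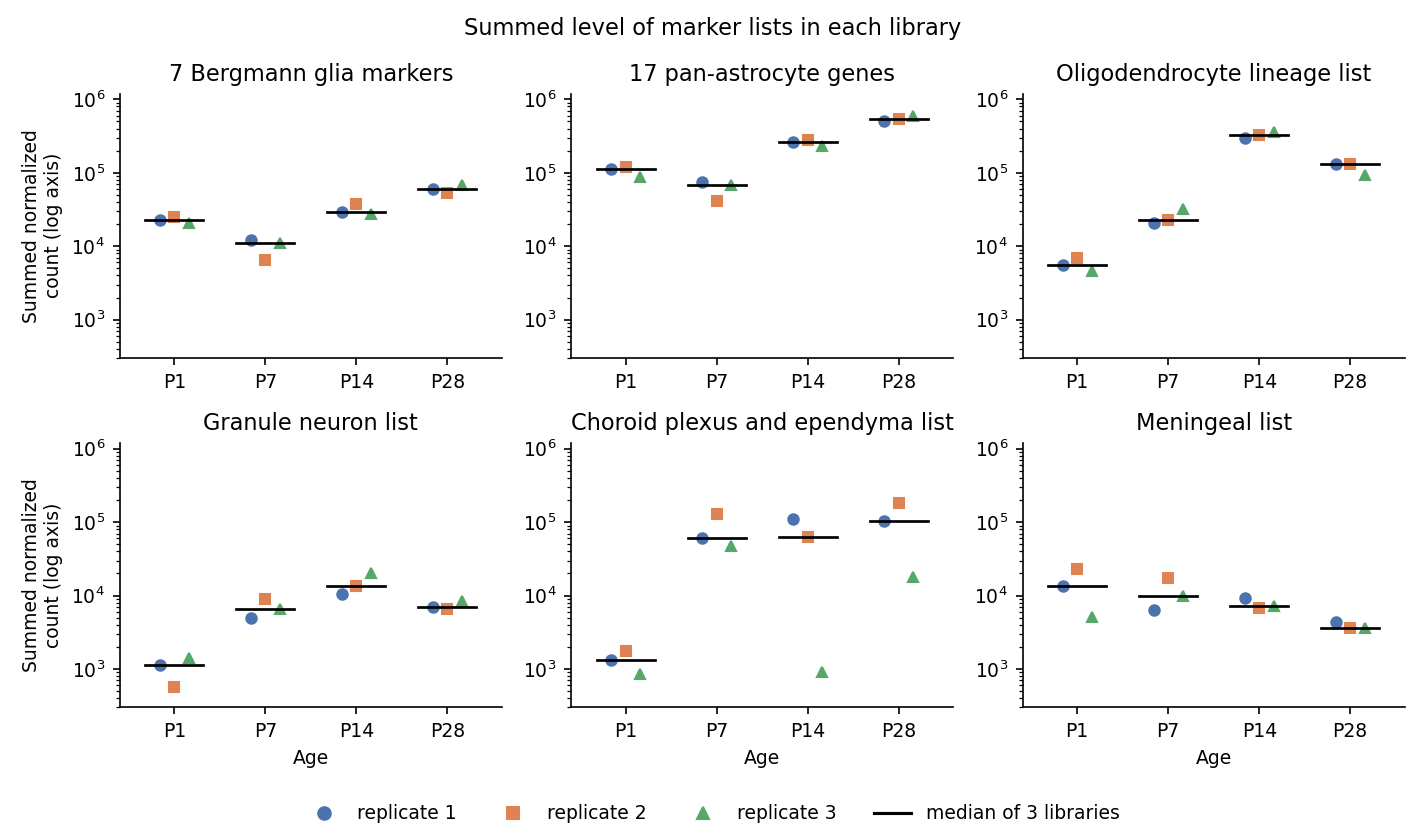
Summed normalized count (log axis) of 6 marker lists in each library, with a line at the median of 3 libraries per age. Oligodendrocyte lineage genes are highest at P14 (293151 to 354221), and the choroid plexus and ependyma list ranges from 918 to 108790 among the P14 libraries.

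Genes of other cell types also moved with age, and their part in the changes of the markers was not tested. Oligodendrocyte lineage genes summed to 4553 to 6963 per library on P1, 20971 to 32118 on P7, 293151 to 354221 on P14 and 92929 to 131917 on P28, with 6 of 8 genes higher at P14 than at P7 and 6 of 8 lower at P28. Granule neuron genes summed to 569 to 1409 at P1 and 10604 to 20422 at P14. Interneuron genes were highest at P7, at 2451 to 5335, where 5 of 5 fell to P14. Genes of dividing cells fell in 6 of 6 from P7 to P14, from 19645 to 25106 at P7 down to 1258 to 1848 at P14. The choroid plexus and ependyma list was at most 1738 at P1 and reached 127187 at P7, and among the P14 libraries it was 108790, 63388 and 918. Among the P28 libraries it was 104308, 181644 and 17637, which holds the highest value of the series.

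Within an age the markers tended to move together by library. The second P14 library was highest for all 7 markers and also highest for the pan-astrocyte sum (276347). At P28 the third library was highest for 6 markers and for the pan-astrocyte sum (600301). It had the lowest oligodendrocyte sum (92929) and the lowest choroid plexus and ependyma sum (17637). The second library of P28 was lowest for 6 markers and had the highest choroid plexus and ependyma sum (181644). Its pan-astrocyte sum (539813) lay between the others (510581 and 600301). The third P14 library was also lowest for 6 markers, but there the choroid plexus and ependyma sum was the lowest of that age (918). It had the lowest pan-astrocyte sum of the P14 libraries (229113). At P1 the markers were split, with the second library highest for A2m and Fabp7 and lowest for Gdf10, Itih3 and Mybpc1.

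Over the 12 libraries, the log2 values of the 6 rising markers had Pearson correlations between 0.64 and 0.97 with each other, and Fabp7 had correlations from -0.74 to -0.18 with them. These describe libraries that share their age, depth and cell make-up. By the same measure over 10211 genes with a mean of at least 100, Spock3, a secreted proteoglycan gene, was the gene most like both Gdf10 (r = 0.976) and Mybpc1 (r = 0.986). Gjc3 (0.974), which encodes a connexin, and Abcb9 (0.972) followed for Gdf10, and the glutamate receptor gene Gria4 (0.984) and Usp6nl (0.983) for Mybpc1. Timp4 was most like Arrb1 (0.997), Slc1a2 (0.995) and the glycolytic gene Pfkm (0.995). A2m was most like Itgav (0.989), Psap (0.988) and Clu (0.987), of which Psap and Clu encode secreted or lysosomal proteins. Hopx was nearest to Grina (0.985), Rasa2 (0.983) and Pcsk6 (0.980), and Itih3 to Lgr6 (0.984), Atp13a4 (0.979) and the potassium channel gene Kcnj10 (0.978). For Fabp7 the nearest genes were Palld (0.974), Acot1 (0.968) and Pogk (0.960), which also had their highest mean at P1 and their lowest at P14.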

How the data were processed

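RNA from GFP-sorted cerebellar cells was measured in 12 libraries, 3 at each of 4 ages. The authors amplified 10 ng of RNA with a kit for low input, aligned paired reads to mm10 with STAR 2.5.0a, counted reads on UCSC transcripts with GenomicAlignments and divided the counts by DESeq2 size factors (DESeq2 1.30.1 in the submitters' notes). The deposited signal is this normalized count. All values (100%) were whole multiples of the value of 1 read within 0.01, so read counts were recovered. The 15464 genes that reached a value of 10 in 3 or more libraries were tested on log2(value + 1) with limma 3.58.1 (trend), with 4 age means over 12 libraries and Benjamini-Hochberg adjustment over all genes. edgeR 4.0.16 and DESeq2 1.42.0 on the recovered reads, other scalings, pseudocounts, filters, a replicate block and leaving out libraries were alternatives. The scripts were tested on simulated data. FPKM used recovered reads and exon lengths from GENCODE M21 (GRCm38), and promoters came from RefSeq (GRCm38.p6).

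The labels number replicates 1 to 3 at each age. Deviations from the age means correlated by -0.03 to 0.14 (median 0.03) between libraries of the same number. Between libraries of different numbers they correlated by -0.105 to 0.054 (median -0.01), and 9 of 12 libraries correlated best with one of their own number. Some structure shared by number is therefore possible. The main fit did not treat the numbers as pairs, and a fit with the number as a block was an alternative. The members and lists were chosen with earlier results of these data known. Genes named beside the members were the 2 tested genes of a list with the highest mean normalized count, relatives with a mean of at least 100, neighbours, and the 3 genes most correlated with a member; any other gene was named after its values were seen. Depth was 6399499 to 14733985 reads, and intervals from counts would cover counting error only. No column of per-sample values was left unused.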

Additional observations from a re-analysis of the deposited data

How the results depend on the processing

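Over 1050 results for the 7 members under the alternatives, 1009 kept their direction and their side of the threshold, 21 lost a call, 7 gained one and 13 changed sign. Many of these alternatives could not change the direction. Another filter or threshold, the replicate block, a fit of only the ages compared, and leaving out a library of another age all keep the same log2 change. The tally is therefore no measure of how robust the directions are. The number of members called when single libraries were left out ranged from 3 to 4 for P7 against P1, from 7 to 7 for P14 against P7, from 3 to 4 for P28 against P14, from 7 to 7 for P28 against P1 and from 7 to 7 over all ages. It was 2 for P7 against P1 without the second libraries of both ages, an alternative chosen after seeing the data, and 2 for P28 against P14 relative to the pan-astrocyte genes. edgeR called 3, 7, 4 and 7 members at these comparisons and DESeq2 4, 7, 4 and 7.

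Relative to the pan-astrocyte genes, the signs changed at P7 against P1 for Itih3 (0.10), Timp4 (0.13), Slc1a2 (0.12) and Bmpr1a (0.18), and at P14 against P7 for Ptprz1 (-1.57), Timp3 (-1.65), Bmpr1b (-0.80), Smad3 (-0.59), Lrp1 (-0.65) and Smpdl3a (-0.45). At P28 against P14 they changed for Gdf10 (-0.84), Itih3 (-0.94), Fabp7 (-0.020), Mybpc1 (-0.34), Timp3 (-0.40), Bmpr1a (-0.36), Lrpap1 (-0.32) and Smpdl3a (-0.33), and further for A2m at P14 against P1 (-0.42) and Syn2 at P28 against P1 (-0.48). This scaling subtracts the list's own change. With library totals alone, P28 against P14 was -0.010 for Gdf10 and -0.10 for Itih3, and the cause was not tested. Leaving out single libraries gave -0.11 to 1.08 for Gdf10 at P7 against P1, -0.044 to 0.34 for Itih3 at P28 against P14, and -0.45 to 0.11 for Fabp7 at P28 against P7.

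With the replicate number as a block, 4, 7, 4 and 7 members were called, and the difference of A2m between P14 and P1 passed (0.73, adjusted p = 0.0498), while those of Slc1a2 between P7 and P1 (adjusted p = 0.0545) and Srf between P14 and P7 (adjusted p = 0.0648) did not. Same-numbered libraries correlated by -0.03 to 0.14 in their deviations from the age means, and 9 of 12 libraries correlated best with one of their own number. Over all genes, the calls for P7 against P1 numbered 1191, with 1812 by DESeq2, 2820 with only the ages compared, 651 to 1020 without single libraries of those ages and 387 without both second libraries. For P28 against P14 they numbered 2232, with 766 when only these ages were fitted and 1421 and 1242 without the first and the third library of P14. Relative to the pan-astrocyte genes they numbered 4133, 12160, 7009 and 13058 at the 4 comparisons, where 3227 and 5350 were called for P14 against P7 and P28 against P1 as deposited. At this depth Mybpc1 at P1 and genes with means under 10 are the values most limited by counting.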
